A study of Mus musculus with 2 samples.

Results

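The data describe the ankyrin and spectrin genes of mouse skeletal muscle: Ank1, Ank2, Ank3, Sptan1, Sptb and Sptbn1. They were chosen by gene name, as all transcript models that the deposited tables assign to these genes, and are 6 of the 15324 annotated genes with at least 1 read. The 2 libraries were long-read RNA sequencing of total RNA from the gastrocnemius, a calf muscle, of female B6CASTF1/J mice aged 36 days. Both carry the same genotype, as first-generation offspring of C57BL/6J crossed with CAST/EiJ, received no treatment that the labels name and hold the same added spike-in mixes. They belong to 1 group and are called replicate 1 and replicate 2, so differences between them are differences between tissue samples and not between conditions. The labels number the mice separately under 1 shared donor entry, and nothing else in them says how the tissue pieces were taken.

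Spectrins are long rod-shaped proteins that pair an alpha with a beta chain and form an elastic mesh under the cell membrane, tied together by short actin filaments. Ankyrins are adaptors: their repeats hold channels, pumps and adhesion proteins, and a separate domain holds beta-spectrin. In skeletal muscle this mesh lies along the sarcolemma over the Z-discs and M-bands. A separate set of small ankyrin-1 proteins, made from a promoter deep inside Ank1, sits in the membrane of the sarcoplasmic reticulum and ties it to the sarcomere.

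Small ankyrin-1 is encoded by a few exons at the far end of Ank1 on chromosome 8 (chr8:22974844-23150497, mm10, plus strand). Its internal first exon, chr8:23139030-23139495, lies 164186 bases after the start of the gene and is the first exon of the annotated transcripts Ank1-201, Ank1-208 and Ank1-217. The coding parts of the exons that follow it are printed here from the GENCODE M21 transcripts, 5′ to 3′, because the splice forms below differ in these pieces. Capitals mark the optional extension of exon 3 and the stop codons of exon 4 and the last exon.
Ank1 exon 2, chr8:23140145-23140228: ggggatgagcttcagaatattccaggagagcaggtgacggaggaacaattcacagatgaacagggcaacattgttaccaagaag
Ank1 exon 3, long form, chr8:23141164-23141304: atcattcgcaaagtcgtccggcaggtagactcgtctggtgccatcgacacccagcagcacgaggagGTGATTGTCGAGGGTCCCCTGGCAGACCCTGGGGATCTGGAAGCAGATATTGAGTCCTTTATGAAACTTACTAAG
Ank1 exon 4, coding part and stop codon, chr8:23141596-23141694: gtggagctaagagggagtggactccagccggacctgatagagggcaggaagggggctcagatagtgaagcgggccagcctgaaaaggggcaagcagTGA
Ank1 last exon, end of the Ank1-201 reading frame, chr8:23148281-23148307: gatcacacctcaacacccaaacccTGA

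The library of replicate 1 held 797105 reads in annotated genes and that of replicate 2 held 1602272, 2.01 times as many. Levels are given in CPM, the count scaled to the reads in annotated genes of its library, so that a single read adds 1.25 CPM in the first of these libraries and 0.624 CPM in the other. Each long read stands for 1 cDNA molecule, so a level was not divided by transcript length, although the chance of recovering a molecule whole falls with its length. The intervals and limits cover counting error only. In bulk tissue, fewer cells of a type and less RNA per cell cannot be told apart. The tissue label was checked against 8 skeletal muscle genes, which held 36.7% and 24.5% of the reads. Genes of slow fibres held 0.00477% and 0.958%, with all 10 called higher in replicate 2 by the test given below. The haemoglobins and Alas2 held 0.256% and 0.0554% of the reads. Of these 5 red-cell genes 4 were called lower in replicate 2, and Alas2 was lower but not called (12.5 CPM and 4.37 CPM). Over all genes tested, 5.78% were called higher and 5.47% lower. Slc4a1, Epb42 and Klf1 had no read in either library.

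Ank1 was the most abundant of the genes, with 303 reads in replicate 1 and 511 in replicate 2. These are levels of 380 CPM and 319 CPM, a mean of 350 ± 43.3 CPM (SD, n = 2). Sptb, which encodes the beta-spectrin of muscle and red blood cells, followed with 54 and 80 reads, 67.7 CPM and 49.9 CPM. Ank1 stood above Sptb in both libraries with no overlap of their exact 95% counting intervals.

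Ank3, the gene of ankyrin-G, had 22 and 55 reads, or 27.6 CPM and 34.3 CPM. Sptbn1, the beta-spectrin found in most cell types, had 23 and 18 reads, or 28.9 CPM and 11.2 CPM. The counting intervals of these genes overlapped in replicate 1 (17.3 to 41.8 CPM for Ank3, 18.3 to 43.3 CPM for Sptbn1). They did not overlap in replicate 2 (25.9 to 44.7 CPM and 6.66 to 17.8 CPM), so the order of Ank3 and Sptbn1 rests on that library. It also depended on the models counted. With models of 2 or more exons only, Ank3 stood at 12.4 CPM and 10.4 CPM, and Sptbn1 at 27.6 CPM and 4.47 CPM.

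Sptan1, which encodes the alpha-spectrin that pairs with both beta chains outside the red cell, was read 6 and 5 times, at 7.53 CPM and 3.12 CPM. Ank2, the gene of ankyrin-B, was read 3 and 10 times, at 3.76 CPM and 6.24 CPM. These are near the level that a count of 0 would still allow (3 counts, 3.76 CPM and 1.87 CPM), and the order of Sptan1 and Ank2 turned between the libraries. The further beta-spectrin genes Sptbn4 and Sptbn5 had no read in either library.

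**Figure D1:**
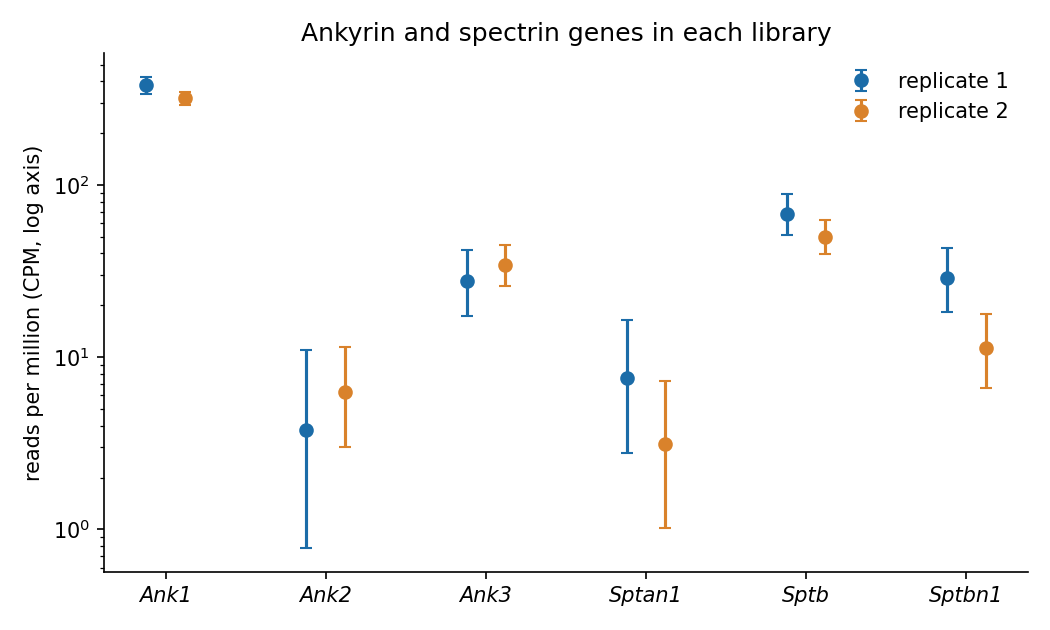
Level of each gene in CPM on a log axis (y) for the 6 genes (x), with 1 point per library and bars that show the exact 95% Poisson interval of its read count. Ank1 lies at 380 CPM and 319 CPM, above all others, and only Sptbn1 has library intervals that do not overlap.

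The reads of Ank1 came nearly all from the small form wherever their start could be told. In replicate 1, 211 of 303 Ank1 reads (69.6%, exact Clopper-Pearson 95% interval 64.1 to 74.8) were in models that start at the internal first exon. In replicate 2 these were 303 of 511 reads (59.3%, 54.9 to 63.6), giving a mean of 64.5 ± 7.31% (SD, n = 2). Models that hold an exon before the internal one, the long form, had 3 reads in replicate 1 and 0 in replicate 2. The small form was thus at 265 CPM and 189 CPM, and the long form at 3.76 CPM and 0 CPM.

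The other 89 and 208 reads held neither the internal first exon nor an exon before it. Most of them, 57 and 163, were single-exon models within the last exon. The remainder started at exon 4 (13 and 15 reads), at the start of the annotated retained-intron transcript Ank1-211 (11 and 15), in the intron before exon 3 (6 and 15), or elsewhere after the internal first exon (2 and 0). The lower small-form share of replicate 2 went with more single-exon reads: among models of 2 or more exons, an alternative chosen after seeing the data, the share was 85.8% and 87.1%.

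Splicing into exon 2 sets aside nearly all undetermined reads. It counts the same small and long reads again, so it is not a separate check of the split above. Of the reads with an intron into exon 2, 210 of 215 in replicate 1 (97.7%, interval 94.7 to 99.2) and 302 of 303 in replicate 2 (99.7%, 98.2 to 100) came from the internal first exon at its annotated donor. An exon before the internal promoter was the source of 3 reads in replicate 1 and of 0 in replicate 2. The interval of this count of 0 of 303 reaches 1.21%. Both libraries thus gave the same order by a wide margin. The chance of recovering a molecule whole falls with its length, and the effect of this on the long form was not tested.

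**Figure D2:**
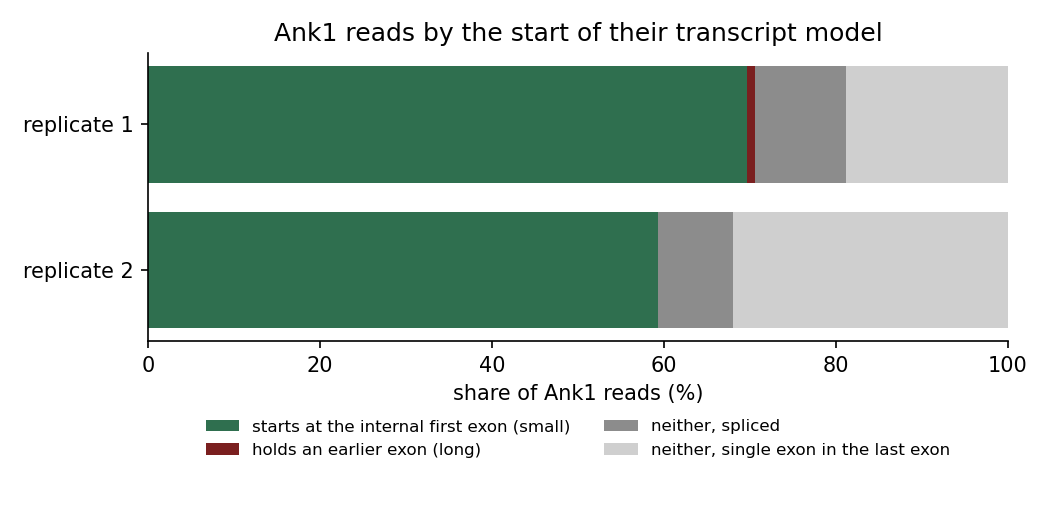
Share of Ank1 reads (x, percent) in each library (y) by where their model starts. The dark green bar of small models takes 69.6% and 59.3%, the thin red bar of long models is seen only in replicate 1 (3 reads), and the pale bar of single-exon reads is wider in replicate 2.

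The 3 long-form reads were long molecules with many exons. One had 44 exons and 7866 bases, one 44 exons and 6304 bases, and one 39 exons and 5836 bases. Those with 44 exons start at chr8:23058525, in an annotated first exon far downstream of the start of the gene. For scale, the annotated long transcripts Ank1-202 and Ank1-209 encode 1848 and 1907 codons, against 155 codons of Ank1-208. Red blood cells also make long ankyrin-1, and the red-cell markers Slc4a1, Epb42 and Klf1 were at 0 beside these reads; the haemoglobin gene Hba-a1 stood at 1355 CPM and 312 CPM. The part of red cells in the long-form reads was not tested.

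Within the small form, 1 splice pattern dominated. The transcript Ank1-208, with the short exon 3 of 66 bases, exon 4 and a reading frame of 155 codons, had 197 reads in replicate 1 and 289 in replicate 2. Models of small ankyrin-1 with the short exon 3 and exon 4 made up 200 of 211 reads (94.8%, interval 90.9 to 97.4) and 290 of 303 reads (95.7%, 92.8 to 97.7). The libraries did not differ beyond these intervals.

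A minor pattern used the donor at the end of the extended exon 3, which adds the 75 bases printed in capitals above. This donor was used by 14 of 232 reads that splice out of exon 3 in replicate 1 (6.03%, interval 3.34 to 9.92) and by 15 of 333 in replicate 2 (4.50%, 2.54 to 7.32). The annotated transcript with this exon, Ank1-201, leaves out exon 4, ends its frame in the last exon after 156 codons and had 2 and 4 reads. The same extension together with exon 4 had 9 and 9 reads. Each of its introns is annotated, but no annotated transcript has the whole chain (class NIC), and its frame runs from the start codon in the internal first exon to the stop of exon 4, 180 codons in all.

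Exon 4 was held by 227 of 230 informative reads (98.7%) and by 328 of 333 (98.5%), and all small models that left it out had the long exon 3. No small model joined the short exon 3 to the last exon directly. Exons 2 and 3 were never skipped, in 215 and 303 reads for exon 2 and in 214 and 311 for the short exon 3. An intron of 2 and 8 reads, chr8:23141082-23141163, runs into exon 3 from a donor outside the annotation and was the only such Ank1 intron seen in both libraries.

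**Figure D3:**
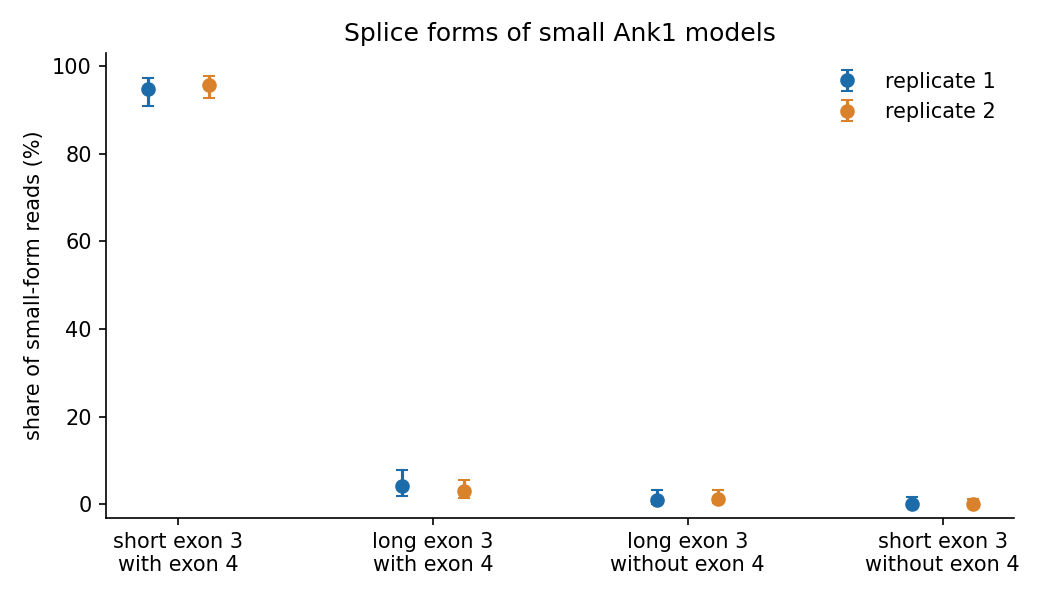
Share of small-form Ank1 reads (y, percent) in each combination of exon 3 and exon 4 (x), with 1 point per library and exact 95% Clopper-Pearson intervals. The short exon 3 with exon 4 holds 94.8% and 95.7%, and the long exon 3 with exon 4 holds 4.27% and 2.97%.

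Sptb (chr12:76580488-76710547, minus strand) is annotated with a pair of coding ends. Sptb-202 stops soon after exon chr12:76597726-76597801 and encodes 2137 codons, the form known from red blood cells. Sptb-201 splices onward from the same exon to a longer end, 2329 codons in all, which is the form known from muscle. The first bases that follow the shared exon in each form are printed 5′ to 3′ on the minus strand, with the stop codon in capitals.
Sptb-202 coding end, chr12:76597657-76597725: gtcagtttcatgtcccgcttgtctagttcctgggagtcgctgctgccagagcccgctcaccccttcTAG
Sptb-201 next exon, chr12:76587522-76587590: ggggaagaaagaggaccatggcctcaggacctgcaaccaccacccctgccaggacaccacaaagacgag

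All reads that could tell these ends apart had the long one. The shared exon was joined onward to the end of Sptb-201 by 30 reads in replicate 1 and 19 reads in replicate 2. The last exon of Sptb-202 was held by 0 reads in both. With 3 counts taken as the limit of a count of 0, this allows up to 10% of such reads in replicate 1 and 15.8% in replicate 2. The red-cell end was therefore not detected, and a share below these limits could not be seen at this depth.

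Sptb transcripts were read in full more often in replicate 1. Models of Sptb-201 with all 36 exons, 10394 bases, had 11 reads in replicate 1 and 1 read in replicate 2. The last intron was held by 32 and 19 reads, the middle one, 5872 bases from the 3′ end, by 18 and 11, and the first one by 11 and 1. Conversely, single-base models placed exactly on the annotated 3′ end of Sptb had 19 and 52 reads. These entries are models whose start and end are the same base, and in replicate 2 they held 52 of the 80 Sptb reads.

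Sptbn1 (chr11:30099395-30268175, minus strand) was mostly read from its 3′ part. Its last intron was held by 18 and 6 reads, its middle intron, 4335 bases from the end, by 10 and 1, and its first intron by 1 and 0. Only 1 read, in replicate 1, matched the whole of Sptbn1-201, which has 36 exons and 2363 codons. The shorter coding end of Sptbn1-203, which lacks the membrane-binding tail domain of the long form, was held by 1 read and 0 reads. In replicate 2, 11 of the 18 reads were a single-exon model of 726 bases within the last exon.

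**Figure D4:**
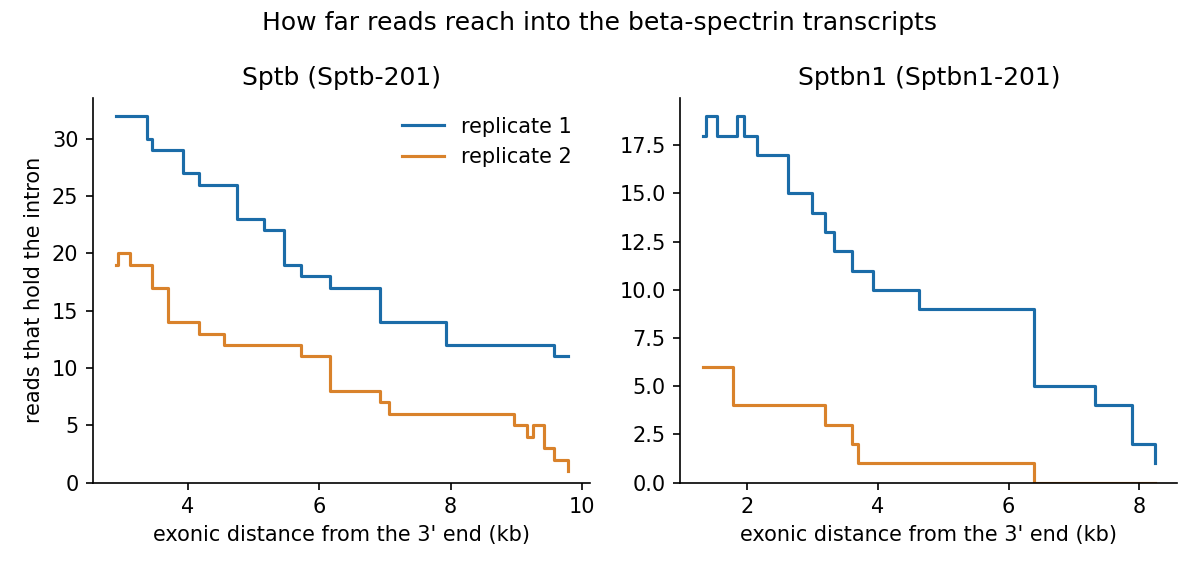
Reads that hold each intron (y) against the exonic distance of that intron from the 3′ end in kb (x), for Sptb-201 and Sptbn1-201, with 1 line per library. The lines start at 32 and 19 reads for Sptb and at 18 and 6 for Sptbn1 and fall toward the 5′ end in both libraries.

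Sptan1 (chr2:29965560-30031451, plus strand) gave too few reads for a test of its exons, and its alternative exons are given as counts. They are printed because each was left out by some reads. Each is 5′ to 3′ on the plus strand.
Sptan1 60-base exon, chr2:30001100-30001159: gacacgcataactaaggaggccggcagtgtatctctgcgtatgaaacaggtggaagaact
Sptan1 24-base exon, chr2:30003674-30003697: gaggtgtatggtgcgatgcccagg
Sptan1 15-base exon, chr2:30014158-30014172: ctttccaagctgttg
Sptan1 63-base exon, chr2:30028644-30028706: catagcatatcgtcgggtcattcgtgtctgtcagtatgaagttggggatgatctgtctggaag
The 60-base exon was held by 1 of 3 informative reads in replicate 1 and the 15-base exon by 2 of 3, with no informative read in replicate 2. The 63-base exon was held by 1 of 5 reads in replicate 1 and 0 of 2 in replicate 2. In replicate 1, 3 reads used an intron outside the annotation, chr2:30003450-30004504, whose donor lies 30 bases past an annotated one and which leaves out the 24-base exon. The longest Sptan1 read had 54 exons and 7826 bases.

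Ank3 (chr10:69398773-70027438, plus strand) was read mainly as short single-exon models. They made up 13 of 22 reads in replicate 1 and 41 of 55 in replicate 2. A model of 73 bases in the last exon alone held 10 and 26 reads. The spliced reads, 9 and 14, reached at most 23 exons and 4976 bases, and none matched a whole annotated transcript. In replicate 1, 2 reads started at the first exon of Ank3-205, chr10:69925532-69926191, from a promoter within the gene.

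Ankyrin-G of nerve cells carries a giant exon, annotated here at chr10:69986089-69993762 with 7674 bases. No read of either library overlapped it, and 5 and 3 reads had an intron across it. Further downstream, an exon of 679 bases (chr10:70001923-70002601) was joined by 5 and 4 reads, and its 91-base form by 1 read and 0 reads. The nerve markers Nefl, Nefm and Nefh had no read in either library.

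Ank3 also has a small exon with neighbouring acceptors, printed 5′ to 3′ with the 3 bases left out by its shorter form in capitals.
Ank3 54-base exon, chr10:70006800-70006853: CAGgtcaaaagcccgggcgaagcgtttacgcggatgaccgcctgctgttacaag
The 51-base form was held by 1 of 9 informative reads in replicate 1 and 3 of 5 in replicate 2, and the 54-base form by 0 of 8 and 1 of 3. A second pair of acceptors 3 bases apart, at the exon chr10:70015568-70015653, was used 7 and 11 times for the 86-base form and 2 and 1 times for the 83-base form. These counts are below the 20 informative reads per library that the exon test required.

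Ank2 (chr3:126921612-127499350, minus strand) had 1 of its 3 reads in replicate 1 and 7 of its 10 in replicate 2 in the single-exon Ank2-216, an annotated retained-intron transcript that covers the last exon. The spliced reads numbered 1 and 2. In each library 1 of them had the same chain of 11 exons, including a 93-base exon at chr3:126930561-126930653 that no annotated Ank2 transcript overlaps. No Ank2 read reached the giant exon.

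Single-exon models had a higher share of the reads in replicate 2 for each of the 6 genes, and over the tables as a whole. The differences were not tested. These models held 18.8% and 31.9% of the Ank1 reads and 38.9% and 72.5% of the Sptb reads. For Sptbn1 these shares were 13.0% and 66.7%. Ank3 had 59.1% and 74.5%, Ank2 66.7% and 80%, and Sptan1 16.7% and 40%. The shares of Ank2 and Sptan1 rest on 3 to 10 reads a library. Over all annotated genes the shares were 9.18% and 16.2%.

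Between the libraries, 1 of the 6 genes was called different. A call needed an adjusted p under 0.05 (two-sided Fisher's exact test, Benjamini-Hochberg over 8096 genes) together with a CPM ratio of 2-fold or more, which 11.3% of all genes tested met. Sptbn1 was lower in replicate 2, from 28.9 CPM to 11.2 CPM, 2.57-fold (exact 95% interval 1.33 to 5.05, adjusted p = 0.0170 by Fisher's exact test). Lower calls were 5.47% and higher calls 5.78% of all genes, so 1 call among 6 genes is near the background. With replicate 2 thinned to the depth of replicate 1 the Sptbn1 call was lost (log2 ratio -1.06 against -1.36, adjusted p = 0.200, Fisher's exact test), against a range of 0.000304 to 0.200 over the alternatives in which Sptbn1 could be tested. With known models only, and without ISM and Genomic models, it had under 10 reads and was not tested. Leaving Atp2a1 out of the totals turned the share of calls that were higher in replicate 2 from 51.4% to 38.0% over all genes.

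The other genes did not pass. The adjusted p of Fisher's exact test was 0.0751 for Ank1, 0.267 for Sptb, 0.714 for Ank3, 0.421 for Sptan1 and 0.787 for Ank2. For Ank1 it ranged from 0.00336 (Atp2a1 left out of the totals) to 0.311 (replicate 2 thinned) over the alternatives. It was also under 0.05 with known models only (0.00365), without ISM and Genomic models (0.0411) and with models of 2 or more exons (0.00903), all by Fisher's exact test. The log2 ratio of Ank1 lay between -0.46 and -0.20, so the 2-fold minimum was not met in any of them. The Sptb result depended on the models counted. With annotated (Known) models alone it was lower in replicate 2 by -4.49 on the log2 scale (adjusted p = 0.000408, Fisher's exact test), which rests on the 11 full-length reads against 1. Without ISM (incomplete) and Genomic models the log2 ratio was -1.86 (adjusted p = 0.0456, Fisher's exact test).

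Counting models of 2 or more exons alone, an alternative chosen after seeing the data, both beta-spectrins were called lower in replicate 2. The log2 ratio was -1.48 for Sptb (33 and 22 reads, adjusted p = 0.00155, Fisher's exact test) and -2.63 for Sptbn1 (20 and 6 reads, adjusted p = 0.000304, Fisher's exact test). Of 6589 genes tested that way 14.1% were called. Ank3, at 9 and 14 reads, had a log2 ratio of -0.25 there against 0.31 with all models and was called in neither.

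The marker lists of other cells are given beside these values, against the 11.3% called over all genes. Genes of Schwann cells and nerve summed to 371 CPM and 161 CPM, with 2 of 4 tested lower in replicate 2, namely Mbp and Prx. Genes of endothelium summed to 125 CPM and 141 CPM, with 0 of 6 tested called in either direction. The part of these cells and of the slow fibres in the Sptbn1 difference was not tested.

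Few exons of these genes had enough reads to be compared between the libraries. Of 18578 internal exons with at least 20 informative reads in each library, 9 (0.0484%) were called by Fisher's exact test at an adjusted p under 0.05 and 10 percentage points. The genes described here had 5 such exons, 3 of Ank1 and 2 of Sptb, and 0 of the 5 were called, with 0 at an unadjusted p under 0.05 by the same exact test. Only exon 4 of Ank1 was skipped by any read, so the others could not have differed, and exons with fewer reads were not tested.

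The other genes of the membrane skeleton were fixed as a list of 19. Of these, 13 had reads, 8 could be tested, and 0 were called in either direction. Over all genes 11.3% were called, so 0 of 8 is not set apart from the background. The median log2 ratio of those tested was 0.01, against 0.05 over all genes tested (on the scale of CPM plus 1). The most abundant were Tmod4 and Tmod1, tropomodulins that cap the pointed ends of actin filaments, and Epb41, protein 4.1, which strengthens the bond of spectrin to actin. Epb41 stood at 21.3 CPM and 13.1 CPM. Tmod4 at 285 CPM and 353 CPM and Tmod1 at 212 CPM and 135 CPM had adjusted p = 0.0355 and 0.000223 by Fisher's exact test. Their folds, 1.24 higher and 1.57 lower in replicate 2, were short of the 2-fold minimum.

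Partners of ankyrin and spectrin in muscle were a list of 23 genes, all with reads. Of 17 tested, 1 was higher and 1 lower in replicate 2, near the background of 11.3% called over all genes, with a median log2 ratio of -0.12. The call upward was Atp1b1, a beta subunit of the sodium pump, a complex that binds ankyrin, with 3 reads (3.76 CPM) and 117 reads (73.0 CPM). It was 19.4-fold higher (95% interval 6.48 to 95.4, adjusted p = 1.36e-15 by Fisher's exact test). The slow-fibre genes moved the same way, 10 of 10 higher, and their part in this was not tested. The call downward was Dag1, dystroglycan, a membrane receptor of the dystrophin complex, with 46 reads (57.7 CPM) and 39 reads (24.3 CPM), 2.37-fold lower (adjusted p = 0.00079 by Fisher's exact test).

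Abundant partners included Tcap, the cap protein of titin at the Z-disc (5174 CPM and 9887 CPM), and titin itself, Ttn (359 CPM and 303 CPM).

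Calpains are calcium-activated proteases that cleave spectrin. Of the 6 genes of this system 5 were tested, and 1 was lower in replicate 2, with a median log2 ratio of -0.52. Over all genes 5.47% were lower, and a single call among 5 genes is not set apart from that. That gene was Capn1, the catalytic subunit of mu-calpain, with 41 reads (51.4 CPM) and 32 reads (20.0 CPM), 2.58-fold lower (95% interval 1.58 to 4.23, adjusted p = 0.000891 by Fisher's exact test). Cast, the calpain inhibitor calpastatin, was the most abundant at 67.7 CPM and 39.3 CPM, and Capn2, another catalytic subunit, stood at 51.4 CPM and 35.6 CPM.

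**Figure D5:**
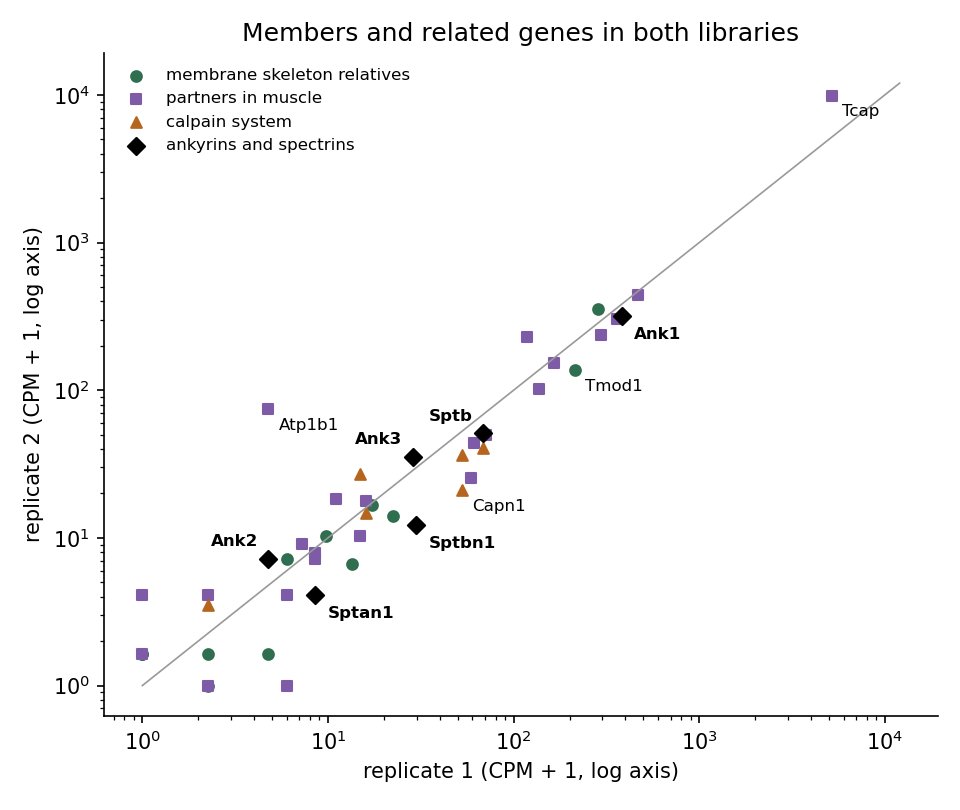
Level of each gene in replicate 1 (x) against replicate 2 (y), as CPM plus 1 on log axes, for the ankyrins and spectrins (black) and the listed related genes; the line marks equal levels. Ank1, Sptb and Ank3 lie near the line, Sptbn1 lies below it at 28.9 CPM and 11.2 CPM, and Atp1b1 lies far above it.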

How the data were processed

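The deposited tables give, per the file headers, whole-number read counts for transcript models of each library separately; per the README beside the files they come from filtered alignments to mm10 with GENCODE M21. For the aligner and read correction, names are not given in the sources used. Counts were summed over the models of each gene, and CPM was computed on reads in annotated genes. Exon chains came from the deposited annotation; 73 of 132 and 62 of 128 ends of the models of these genes lay exactly on an annotated end, so ends are not exact. Small Ank1 models start at the internal first exon, long ones hold an earlier exon. Genes and exons were tested with the two-sided exact test of Fisher (SciPy 1.17.1), which compares these 2 libraries; p-values measure the reads of both libraries and no spread between animals. edgeR 4.0.16 and DESeq2 1.42.0 gave other scalings of the fold. Both tests were tried on simulated data. Of 200 genes changed 4-fold, 136 (68%) were recovered, with 3 false calls. Recovery was 100% for the 55 changed genes with 100 reads or more, so the misses fell on genes with fewer. Ank2, Ank3, Sptan1 and Sptbn1 had fewer reads than that. Of 200 exons shifted by 30 percentage points, 135 (67.5%) were recovered, with 0 false calls. A gene or exon that was not called may thus still differ. Named genes were the 6 members, called related genes and the 3 most abundant of each list; some genes and sequences are not reported here. The members and lists were chosen with earlier results of these data known. Sequences are from the M21 transcripts.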

Additional observations from a re-analysis of the deposited data

Results flagged for a closer look

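Reads on the opposite strand lay within the bounds of several of these genes and enter none of the values above. They exceeded the 3 reads that a count of 0 allows in Ank2 (6 reads in replicate 1 and 81 in replicate 2), in Ank3 (18 and 94), in Sptbn1 (20 in replicate 2) and in Sptb (4 in replicate 2). In Ank2, 56 of the 81 were 1 single-exon model opposite the last exon. With no control library, no level of opposite-strand reads from other sources could be set beside them.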

How the results depend on the processing

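With known models only, the mean level was 0 CPM for Ank3, 0.942 CPM each for Sptan1 and Sptbn1 and 10.8 CPM for Sptb, the Ank1 small-form share was 95.8%, Ank1-208 held 94.7% of Ank1 reads, Ank2-216 and Sptb-201 each held 100% of their gene, and 255 genes were higher in replicate 2 (468 with all models). Without ISM and Genomic models, Ank1 was at 299.9 CPM, Ank3 at 3.45, Sptb at 11.4 and Sptbn1 at 2.63 CPM. The small-form share was then 93.5% and Ank1-208 held 88.2%. Sptb-201 held 91.7% in replicate 1 and 16.7% in replicate 2 (mean 54.2%). Sptbn1-201 held 33.3% and 0% (mean 16.7%), and both shares rest on few reads. With models of 2 or more exons, Ank1 was at 299.6, Ank2 at 1.44, Ank3 at 11.4, Sptb at 31.0 and Sptbn1 at 16.0 CPM. The small-form share was then 86.4%, Ank1-208 held 81.6% and Ank2-216 0%. Among small and long models only, the small-form share was 99.3%. With no fold minimum, 973 genes were higher and 673 lower (468 and 443). With TMM factors, 2 partners were higher (1 in the main analysis), Kcnj11 being added (117 CPM in replicate 1 and 227 CPM in replicate 2). Leaving Atp2a1 out of the totals moved the median log2 ratio of all genes from 0.06 to -0.07. Where a class left a library with no reads of a gene, no share was computed. No paired analysis was possible because both libraries belong to 1 group. Sptan1 and Ank2, with 3 to 10 reads a library, allow no statement on differences.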
